A study of Mus musculus with 2 samples.

Results

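The cytotoxic granule genes described here are Gzma, Gzmb, Gzmc, Gzmd, Gzme, Gzmf, Gzmk, Gzmm, Prf1 and Nkg7, taken as every non-control probe that carries 1 of these gene names in the scanner files. That gave 10 genes and 13 probes, out of 34960 gene names and 55676 probes on the array. Regulatory T (Treg) cells, the CD4 T cells that hold other immune cells in check, came from wild-type and from Nr4a-TKO mice, all 5 weeks old, and were lysed straight after sorting. Their total RNA was labelled with Cy3 and hybridised to Agilent mouse expression arrays, with 1 array for each genotype. Nothing in the labels gives the altered Nr4a genes, what drove the alteration, how many mice gave each sample, or which markers the sort used. There are no replicates, so each difference below is between 2 arrays and carries no test.

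Granzymes are serine proteases stored in the granules of cytotoxic lymphocytes. Perforin, the product of Prf1, opens a path through the membrane of the target cell, and granzymes then cleave proteins inside it. Nkg7 is a protein of the granule membrane that takes part in granule release. Activated Treg cells can make granzyme B and use it against effector T cells, B cells and antigen-presenting cells.

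Signals are Agilent processed signals in fluorescence units, each with the scanner software's own error estimate for the spot, which holds no variation between mice or preparations. A difference is the log2 signal labelled Nr4a-TKO less that of wild-type, once each array had been scaled to its 75th percentile (831 units in wild-type and 752 in Nr4a-TKO). Folds are the same differences on the linear scale. A probe counted as measured where the scanner called it well above background, and 66.0% of wild-type and 63.9% of Nr4a-TKO probes were. Of 8 genes read for the sorted cells, Cd4, Cd3e and Cd5 mark T cells in general and the other 5 are high in Treg cells, and all were measured on both arrays. In Nr4a-TKO 3 of them were at least 2-fold lower, beside 3.06% of all measured gene names, and the median of the 8 was -0.54. The 3 were Foxp3, the Treg lineage factor, by 17.2-fold, Ikzf2 by 3.07-fold and Ctla4 by 2.29-fold. Gzmb was also lower there, and whether these genes bear on it was not tested. Of the Nr4a genes, Nr4a3 was 7.04-fold lower, Nr4a1 differed by 0.06 and Nr4a2 was 2.54-fold higher. Since where the alteration lies is not known, these probes cannot check the genotype, and Nr4a-TKO stands here as a label. The samples also differed in sex-linked RNA: Xist was at least 106-fold higher and Ddx3y 3.63-fold lower in Nr4a-TKO.

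Of the 10 genes, 8 were measured on both arrays. Gzmb and Gzmc were lower in Nr4a-TKO by 2-fold or more and Gzma was higher by that size, while the other 5 (Gzme, Gzmk, Gzmm, Prf1 and Nkg7) stayed within 2-fold at their brightest probe. The same threshold was passed by 3.06% of all 23493 measured gene names in the lower direction and by 3.15% in the higher, together 6.22%. The median difference of the 8 genes was 0.04, and that of all gene names was 0.08 with an SD of 0.56. The granule genes thus had members far out on each side and a median near that of all genes. Gzmf was well above background in Nr4a-TKO only, and Gzmd on neither array.

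**Figure D1:**
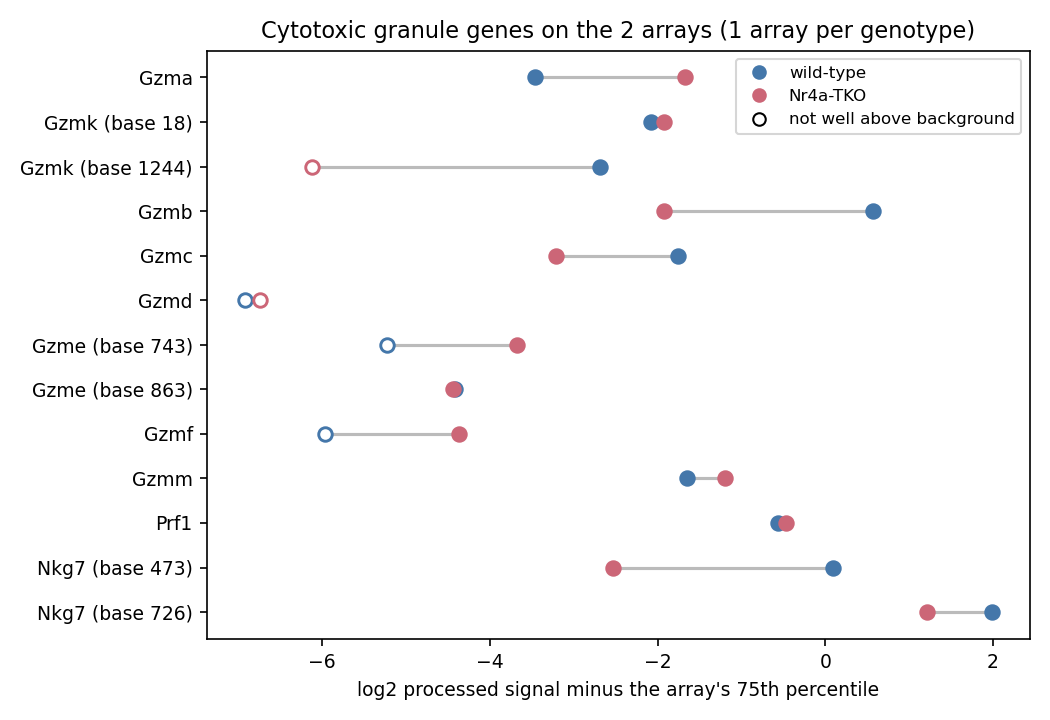
Log2 processed signal minus the array's 75th percentile (x axis) for each of the 13 probes (y axis), with wild-type in blue and Nr4a-TKO in red, 1 array each, and open circles for values not well above background. Gzmb, Gzmc and both Nkg7 probes lie lower in Nr4a-TKO and Gzma lies higher, while Prf1 and the Gzmk probe at base 18 nearly coincide. Positions of different probes on the x axis are not to be compared.

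Gzmb encodes granzyme B, which cleaves after aspartate and starts the death of target cells. Its signal was 1231 ± 123 in wild-type and 199 ± 21.2 in Nr4a-TKO, and it was well above background on both. The difference was -2.49 with a scanner error of 0.21, or 5.61-fold lower in Nr4a-TKO. That put Gzmb at place 67 from the lowest among the 23493 gene names. Over the 9 other ways of scaling, background correction and probe choice, it stayed lower by 4.17-fold to 6.79-fold. Some of these could not move it: Gzmb has 1 probe, and the deposited log2 values hold the same signals less a constant. Several scalings shift all genes alike, so the settings are not separate checks. Its only probe lies on chromosome 14, minus strand, at chr14:56877916-56877975 (mm9, the build given in the file headers), and begins at base 1135 of the transcript by the file. The opening 30 bases of this probe are shown because the Gzmb difference rests on it alone.
Gzmb probe, bases 1 to 30: ccccgagaatgttatctaatgctagtcatc

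Gzmc encodes granzyme C, a protease of activated cytotoxic T cells, and lies next to Gzmb. Its signal was 247 ± 25.7 in wild-type and 81.2 ± 10.9 in Nr4a-TKO. It was lower by 2.75-fold (difference -1.46, scanner error 0.24), and by 1.82-fold with normexp background correction, which ends the 2-fold call, as does a stricter filter on dim probes, described with Gzma. Its probe is at chr14:56850307-56850366 on mm9, 27.6 kb from that of Gzmb. Both neighbours were therefore lower in the array labelled Nr4a-TKO, Gzmb by more than Gzmc.

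Gzma encodes granzyme A, a tryptase that also acts outside cells. It went the other way, with 75.6 ± 10.1 in wild-type and 236 ± 24.6 in Nr4a-TKO. The difference was 1.78 with a scanner error of 0.25, or 3.44-fold higher, at place 209 from the highest of all gene names. With normexp it was 2.19-fold higher, and it stayed past 2-fold in all 9 settings. As for Gzmb, some of those settings could not move it. A stricter filter, which asked for 4 times the lowest signal called well above background on both arrays, removed Gzma, whose wild-type signal is under that. Its probe is on chromosome 13 at chr13:113884035-113884094 on mm9. Shown here are its bases 30 to 59, with the polyadenylation signal in capitals.
Gzma probe, bases 30 to 59: tgtctgatcacaAATAAAatcaacttgaat
A further probe on the array, annotated as a predicted granzyme A-like gene (LOC101056661) and picked out here after its values were seen, read 109 ± 12.6 and 149 ± 16.2, or 1.52-fold higher.

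**Figure D2:**
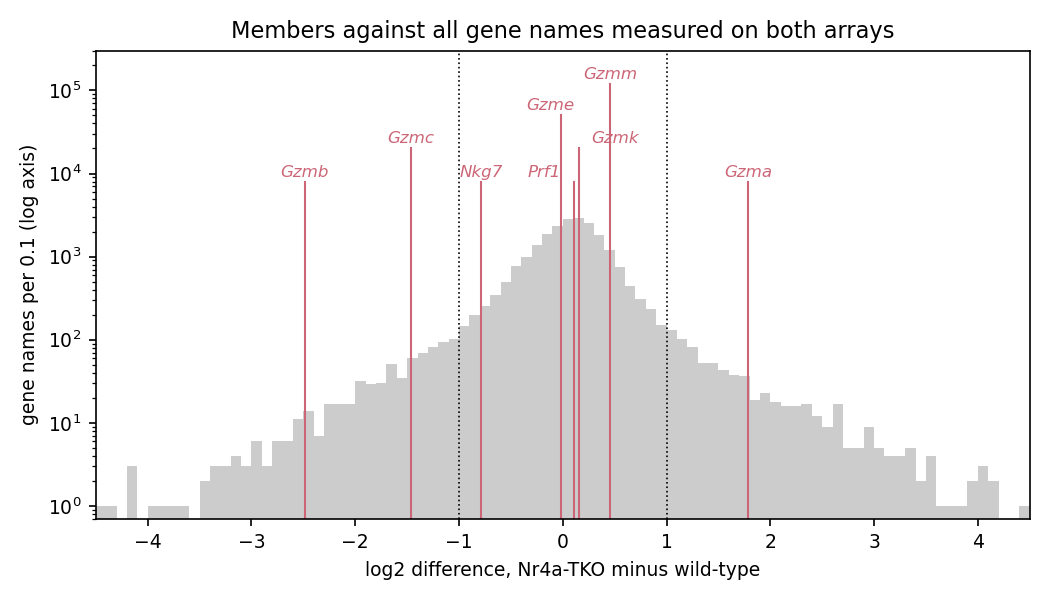
Histogram of the log2 difference, Nr4a-TKO minus wild-type, over the 23493 gene names measured on both arrays (y axis on a log scale), with red lines for the 8 measured granule genes and dotted lines at 2-fold. Gzmb and Gzmc stand in the lower tail, Gzma in the upper tail and the other 5 between the dotted lines; the heights of the red lines carry no value.

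Gzmk, whose product is a second tryptase and which lies beside Gzma on chromosome 13, had probes that differed from each other. The probe near the start of the transcript (base 18) read 197 ± 20.7 in wild-type and 199 ± 20.9 in Nr4a-TKO, a difference of 0.16 with a scanner error of 0.21. The probe near the end (base 1244) read 129 ± 14.8 in wild-type and 10.8 ± 7.22 in Nr4a-TKO, where it was not well above background. Such a probe has only a lower bound, taken against the lowest signal well above background on the dim array, and it was at least 3.99-fold lower. With normexp background correction it was 2.10-fold lower, so the bound holds for the main setting only. Near the start of the transcript the arrays differed by less than the scanner error, and near its end only wild-type was above background. The former, at chr13:113970774-113971087 on mm9, spans 314 bases of genome for 60 bases of probe, so it joins pieces of the gene that are apart in the genome. The latter, at chr13:113961816-113961875, is annotated to an Ensembl transcript and to no RefSeq transcript, and its polyadenylation signal is in capitals below. Both are shown because the reading of Gzmk depends on which is used.
Gzmk probe at base 18: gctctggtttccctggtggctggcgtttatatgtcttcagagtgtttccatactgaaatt
Gzmk probe at base 1244, bases 1 to 30: cgttcatcctaAATAAAatgtggacgtctg

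Gzmm, whose product cleaves after methionine, was 265 ± 27.5 in wild-type and 329 ± 33.7 in Nr4a-TKO. The difference of 0.45 (scanner error 0.21) made it 1.37-fold higher, and over the settings it ran from 0.18 to 0.47. Prf1, the pore former that granzymes need to enter a target cell, read 561 ± 56.4 and 546 ± 54.9. Its difference of 0.10 was smaller than its scanner error of 0.21, and its sign turned under 2 of the 9 settings. Perforin RNA thus had nearly the same signal on both arrays while that of granzyme B was lower.

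Nkg7 was lower at both of its probes on chromosome 7, by sizes that did not match. At base 726 (chr7:50693530-50693589, mm9) it read 3310 ± 331 in wild-type and 1741 ± 174 in Nr4a-TKO, a difference of -0.78 with a scanner error of 0.20, or 1.72-fold lower. At base 473 (chr7:50693148-50693207) it read 885 ± 88.7 and 131 ± 14.4, a difference of -2.62, or 6.13-fold lower, and 4.25-fold with normexp. As the mean of both probes it was 3.25-fold lower. The gap of 1.83 between the probes was wider than in 98.4% of the 6748 genes with several probes measured on both arrays, where the median gap was 0.25. The direction was shared and the size was not settled by these probes, whose opening bases follow.
Nkg7 probe at base 473, bases 1 to 30: tctccatattagtggctatggcagtgtaca
Nkg7 probe at base 726, bases 1 to 30: aaggaatgcagaattctgtctctgtccctc

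**Figure D3:**
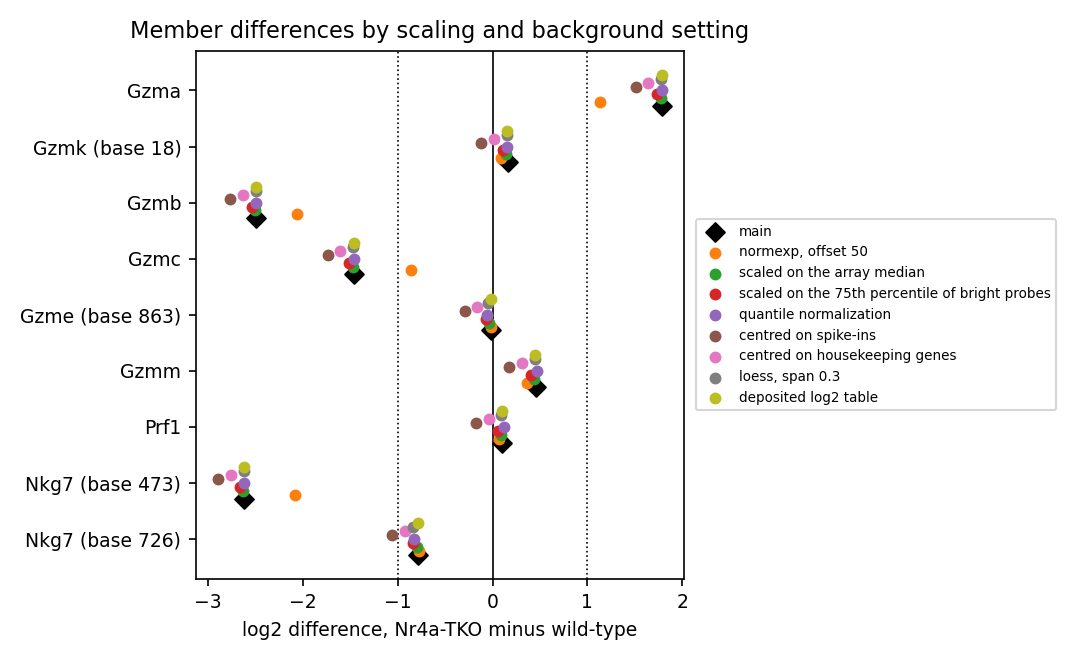
Log2 difference, Nr4a-TKO minus wild-type (x axis), of the 9 probes measured on both arrays (y axis), with a black diamond for the main setting and coloured points for the other scalings, normexp and the deposited log2 table. Gzmb, Gzmc and Nkg7 stay below 0 and Gzma above 0 in all of them, with normexp nearest to 0 for Gzma, Gzmb, Gzmc and the Nkg7 probe at base 473; Prf1 and the Gzmk probe at base 18 cross 0.

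The remaining granzymes lie with Gzmb and Gzmc in a protease cluster on chromosome 14. The probes of Gzme, Gzmd, Gzmf, Gzmc and Gzmb span chr14:56736456-56877975 on mm9, or 142 kb. Mice carry several closely related granzymes here, which are made mainly by activated cytotoxic T cells and natural killer (NK) cells. Gzmd, Gzme and Gzmf were dim on both arrays: the lowest values called well above background were 28.1 units in wild-type and 29.3 in Nr4a-TKO, and no probe of these 3 genes passed 58.9 units. Gzmd read 6.84 ± 6.88 and 7.03 ± 7.06, each no larger than its own error. Gzmf read 13.2 ± 7.13 and 36.3 ± 7.73, at least 1.43-fold higher in Nr4a-TKO, or 1.31-fold with normexp. That bound of 0.52 was smaller than its scanner error of 0.84. At base 743 Gzme read 22.1 ± 7.44 and 58.9 ± 9.40, at least 2.32-fold higher, or 1.42-fold with normexp. At base 863 it read 38.8 ± 7.09 and 34.7 ± 6.98, a difference of -0.02. The Gzme probes did not give 1 answer, and the files list the one at base 743 for a Gzmd transcript as well as for Gzme.

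The probes of this cluster are printed because near-identical copies can share signal. In capitals is the longest run of bases that the Gzme probe shares with the Gzmn probe (18 bases) and that the Gzmf probe shares with the Gzmg probe (8 bases). Gzmg and Gzmn, granzymes G and N of the same cluster, were well above background on neither array.
Gzme probe at base 743: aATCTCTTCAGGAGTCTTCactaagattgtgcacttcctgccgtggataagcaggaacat
Gzmn probe: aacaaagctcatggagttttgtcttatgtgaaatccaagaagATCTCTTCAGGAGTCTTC
Gzmf probe: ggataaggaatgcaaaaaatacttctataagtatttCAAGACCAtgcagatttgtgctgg
Gzmg probe: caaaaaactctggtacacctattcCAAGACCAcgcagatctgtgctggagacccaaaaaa
Gzmd probe: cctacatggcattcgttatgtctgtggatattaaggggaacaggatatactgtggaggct
Without gaps, the Gzmf and Gzmg probes match at 79.2% of 48 overlapping bases. The Gzmf probe was above background in Nr4a-TKO only. The Gzmg probe read 26.6 ± 7.06 in wild-type and 13.6 ± 7.05 in Nr4a-TKO. Whether these probes share signal was not tested.

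Other proteases of the chromosome 14 cluster were read from a list of 9 genes. Ctsg, cathepsin G of neutrophils and mast cells, was 297 ± 30.6 in wild-type and 45.8 ± 8.53 in Nr4a-TKO, or 5.88-fold lower. Mcpt8, a protease that marks basophils, was at least 2.45-fold lower. Mcpt9 differed by 0.13, and Cma1 and Mcpt2 were above background in wild-type only, at least 1.26-fold and 1.07-fold lower. Mcpt1, Mcpt4, Gzmg and Gzmn were above background on neither array. Cma2, a protease of this stretch outside the list, read 407 ± 41.1 in wild-type and 366 ± 37.1 in Nr4a-TKO, a difference of -0.01. Measured on both arrays were 18 probes outside the protease family within 400 kb of the cluster. Of these, 1 was past 2-fold, beside 6.22% of all gene names, and their median difference was 0.15. Ltb4r1 was that one, 2.29-fold higher, and the probe of Ltb4r2, above background in Nr4a-TKO only, was at least 2.10-fold higher. At 2-fold or more, Mcpt8, Ctsg, Gzmc and Gzmb were lower in this stretch of chromosome 14, and Cma1 and Mcpt2 were lower by bounds under that size. Not all of its proteases were lower: Mcpt9, Cma2 and the Gzme probe at base 863 differed by 0.13, -0.01 and -0.02. The Gzme probe at base 743 and Gzmf had higher bounds, 2.32-fold and 1.43-fold in the main setting.

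**Figure D4:**
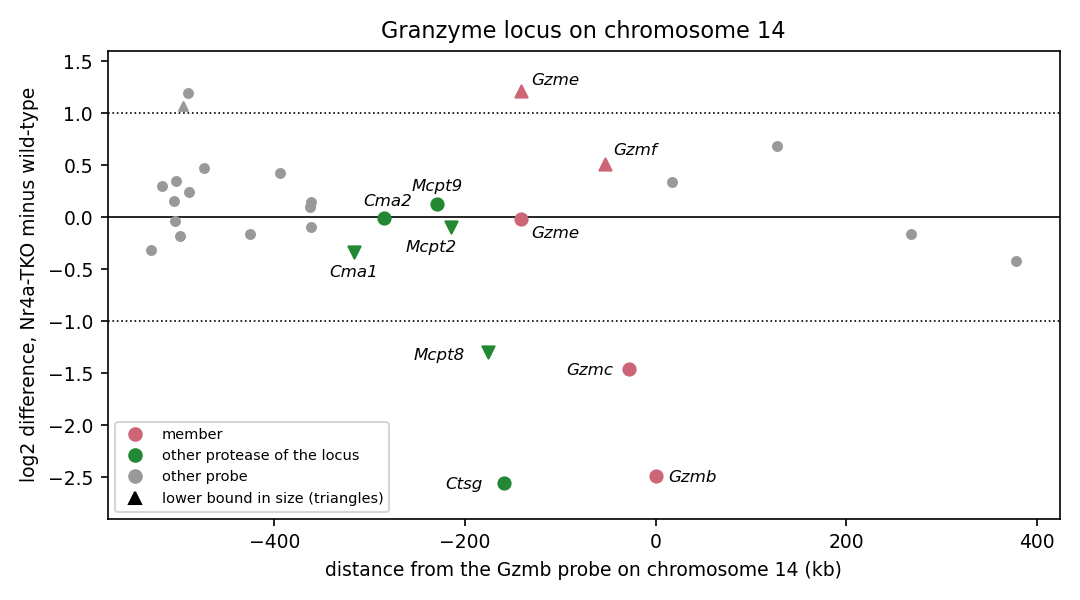
Log2 difference, Nr4a-TKO minus wild-type (y axis), against distance in kb from the Gzmb probe along chromosome 14 (x axis), for the listed granule genes (red), other proteases of the cluster (green) and other probes (grey); triangles are lower bounds in size. Gzmb, Gzmc, Ctsg and Mcpt8 lie below -1, while the bounds of Gzmf and of the Gzme probe at base 743 lie above 0.

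Promoter sequences show how alike these neighbours are. The 250 bases before the start of each gene came from RefSeq (GRCm38.p6), which holds all 10 genes. Among Gzmc, Gzmd, Gzme, Gzmf and Gzmg the 10 pairs were 70.2% to 94.8% identical after alignment. Gzmb was 44.1% to 47.5% identical to those 5, within the 43.0% to 48.9% seen for pairs with Gzma or Gzmk of chromosome 13. Whether promoter sequence bears on any of the differences was not tested. Searched on both strands were AAAGGTCA (NBRE, the element that binds Nr4a proteins as monomers), TGACGTCA (CRE, bound by CREB and ATF factors), TGTGGT (bound by Runx factors) and TTCNNNGAA (bound by STAT factors). None of these patterns overlapped another in the stretches below.

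The NBRE letters were found in the Gzme promoter, 148 bases before the start, and in that of Gzmd at 147 bases, and 1.34% of 32851 promoters hold them. The CRE letters were found in Gzmc at 57 bases and in Gzmf at 82 bases, and 1.55% of promoters hold them. The Runx letters were found in every one of these genes except Gzmk, and 14.1% of promoters hold them; Gzmm has a second start without them. The STAT letters were found in Gzmm and Nkg7, and 7.02% of promoters hold them. A match is a run of letters and not a binding site. Matches shared among Gzmc, Gzmd, Gzme and Gzmf lie in promoters at least 70.2% identical, so they are not separate finds. The last 150 bases before the start follow for the 2 lower granzymes, for Gzme and Gzmf of the same cluster, and for Gzma, which was higher, all on the minus strand and with motif letters in capitals.
Gzmb, chr14:56262335-56262484: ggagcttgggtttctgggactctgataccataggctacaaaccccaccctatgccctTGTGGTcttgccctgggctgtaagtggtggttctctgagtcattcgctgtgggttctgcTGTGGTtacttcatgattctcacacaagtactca
Gzmc, chr14:56234658-56234807: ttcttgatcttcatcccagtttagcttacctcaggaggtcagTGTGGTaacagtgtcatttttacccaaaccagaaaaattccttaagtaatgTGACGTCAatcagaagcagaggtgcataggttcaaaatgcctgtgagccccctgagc
Gzme, chr14:56120626-56120775: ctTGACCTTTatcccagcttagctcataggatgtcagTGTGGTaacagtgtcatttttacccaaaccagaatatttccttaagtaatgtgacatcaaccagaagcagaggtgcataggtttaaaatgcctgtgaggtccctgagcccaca
Gzmf, chr14:56211408-56211557: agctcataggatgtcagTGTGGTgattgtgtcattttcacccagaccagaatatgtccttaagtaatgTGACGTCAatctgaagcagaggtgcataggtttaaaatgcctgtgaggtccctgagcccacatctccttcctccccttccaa
Gzma, chr13:113100982-113101131: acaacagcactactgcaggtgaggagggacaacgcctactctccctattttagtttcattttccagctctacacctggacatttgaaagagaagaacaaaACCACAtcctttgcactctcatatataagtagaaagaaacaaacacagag

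Granzymes work with other proteins that store, activate, release, block and accompany them, and 81 such genes in 7 lists were read. Both arrays measured 70 of them, and their median was 0.05. Past 2-fold were 6 in the higher and 6 in the lower direction, which left 58 inside, beside 6.22% past it among all gene names.

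For granule storage and processing, 11 of 12 genes were measured, with 1 higher, 1 lower and a median of 0.20. Cst7, which encodes cystatin F, an inhibitor of the cathepsins that activate granzymes, read 2004 in wild-type and 8872 in Nr4a-TKO, or 4.89-fold higher. Ctsw, a cathepsin of cytotoxic lymphocytes, read 7794 and 1044, or 6.76-fold lower. Srgn, the serglycin core on which granzymes are stored, differed by 0.33, and Ctsc, the dipeptidyl peptidase that trims granzymes to their active form, by 0.06 (0.60 at a dimmer probe). The inhibitor and the lymphocyte cathepsin thus lay on opposite sides, with the storage and activating genes inside 2-fold.

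Of 15 granule release genes, 14 were measured on both arrays, with 0 of those past 2-fold and a median of 0.01. That count is near the 6.22% of all gene names past 2-fold. The other gene, Sytl2, was lower by its bound. Unc13d, which primes granules, Rab27a, which docks them, and the fusion genes Stx11 and Stxbp2 differed by 0.09, 0.06, 0.30 and 0.04. For Unc13d, Rab27a, Stxbp2 and the activating Ctsc the sign turned under some scalings. Lyst, which shapes lysosome-related granules, differed by -0.49. Sytl2, which tethers granules through Rab27a, read 461 in wild-type and 25.4 in Nr4a-TKO, where it was not well above background, and so was at least 14.3-fold lower.

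Among 7 inhibitors of granule proteases and related serpins, 6 were measured, with 0 higher, 1 lower and a median of -0.27. Serpina3g, a serpin induced in activated T cells, was 903 in wild-type and 177 in Nr4a-TKO, or 4.62-fold lower. Serpinb9, which blocks granzyme B in the cells that make it, differed by -0.64 and Serpinb6b by less than 0.01 in size. Of 12 substrates of granzyme-driven death, such as Bid, all were measured and 0 were past 2-fold, with a median of 0.11. That count too is near the 6.22% of all gene names.

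Of 10 other effector molecules, all measured, 2 were higher and 3 lower, with a median of -0.41. Fasl, the death ligand that kills without granules, read 1124 and 217, or 4.69-fold lower. Ifng was 3.91-fold lower and the chemokine gene Ccl3 2.35-fold lower, or 1.96-fold with normexp. Lta, for lymphotoxin alpha, was 2.64-fold higher, and Slamf7, a receptor of cytotoxic and activated lymphocytes, read 159 and 791, or 5.49-fold higher. Effector genes therefore differed in direction, as did the granzymes.

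Transcription factors and IL-2 receptor chains that regulate granzyme genes gave 15 of 16 measured, with 3 higher, 0 lower and a median of 0.28. Id2, Batf and Eomes were higher by 3.25-fold, 2.49-fold and 2.47-fold, and Eomes by 1.99-fold at its lowest setting. Eomes drives cytotoxic genes in CD8 T and NK cells, and its signal was 183 in wild-type and 410 in Nr4a-TKO. Tbx21 and Runx3, which also act on granzyme and perforin genes, differed by 0.38 and 0.39, and Prdm1 by -0.72. Beside 3.06% of all gene names at least 2-fold lower, 0 of 15 regulators is near that share. Whether any of them bears on the Gzmb difference was not tested.

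**Figure D5:**
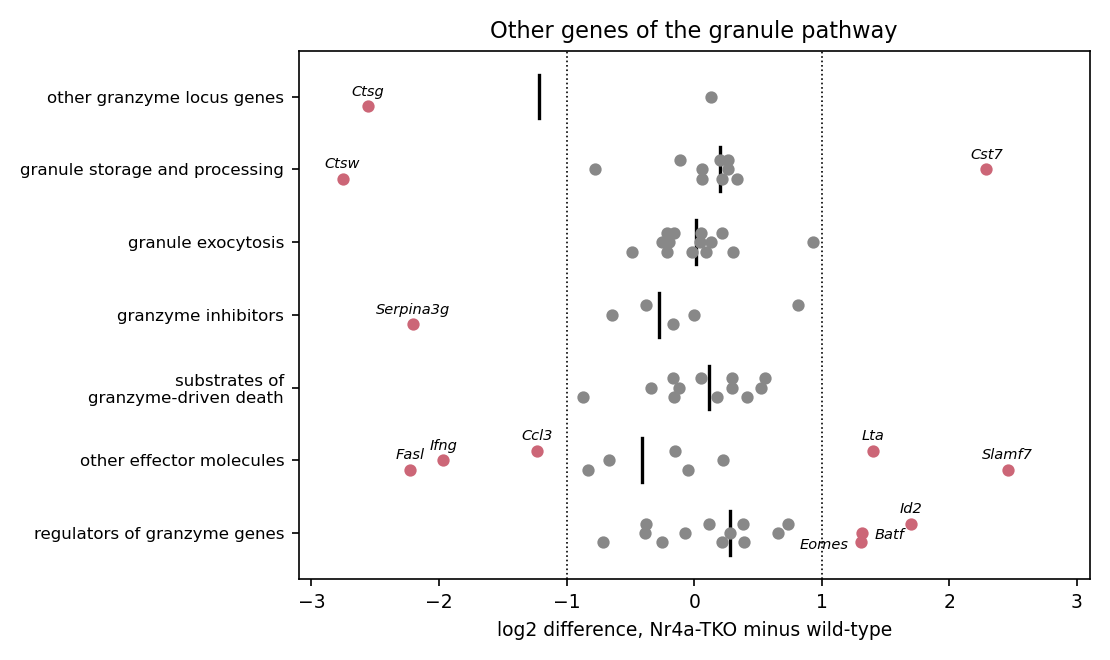
Log2 difference, Nr4a-TKO minus wild-type (x axis), for the 70 measured genes in 7 lists of the granule pathway (y axis), with the list median as a black bar, genes past 2-fold in red with their names, and dotted lines at 2-fold. The 14 release genes measured on both arrays and the substrates stay within 2-fold, while effector molecules reach past it on both sides; genes with only a bound, such as Sytl2 at no less than 14.3-fold lower, are not drawn.

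Cells other than Treg cells can bring granzyme RNA into a sort, so their markers are given beside the differences above. In bulk RNA, fewer cells of a type and less RNA per cell cannot be told apart. This holds for the Treg genes too: Foxp3, Ikzf2 and Ctla4 were lower in Nr4a-TKO, as given above. Cd4, Cd3e and Cd5 differed by -0.52, -0.36 and 0.36, and Il2ra and Tnfrsf18 by -0.39 and -0.56. Whether the share of CD4 T cells without Foxp3 differed between the samples, or bears on the granzyme differences, was not tested. Of 11 NK cell markers, 6 were well above background in wild-type and 4 in Nr4a-TKO. Their summed signal, in units of each array's 75th percentile, was 1.06 and 0.50. Klrd1 was at least 5.97-fold lower, Klrc1 at least 2.89-fold and Cd160 5.04-fold, while Ncr1, Fcer1g and Tyrobp differed by -0.11, -0.14 and -0.62 and Klrb1c, Klrk1, Klra4, Klra8 and Klre1 were above background on neither array. The CD8 genes Cd8a and Cd8b1 were measured on both arrays, with differences of -0.18 and -0.64, and summed to 1.17 and 0.77.

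Of 11 mast cell and basophil markers, 5 were above background in wild-type and 3 in Nr4a-TKO, and they summed to 7.42 and 2.55, most of it Tpsb2, which was 3.75-fold lower. Kit was 5.40-fold lower, Hdc differed by 0.85, and Cpa3, Fcer1a, Ms4a2, Tpsab1, Mcpt4 and Gata2 were on neither array. Cma1 and Mcpt8, given above with the chromosome 14 cluster, are on this list too. Of 9 granulocyte markers, 7 and 6 were above background, summing to 2.09 and 1.28, with Mpo 7.76-fold lower, S100a9 at least 2.89-fold and S100a8 at least 2.50-fold lower. Others of that list were not: Elane differed by -0.07, Ngp by -0.21 and Camp by 0.13, Prtn3 was at least 1.37-fold higher, and Ltf was on neither array. Ctsg, given above with the chromosome 14 cluster, is itself on the granulocyte list and enters its counts and sums. Some NK, mast cell and granulocyte markers were thus lower along with Gzmb, Gzmc and Nkg7 while others of the same lists were not. The part of these markers in those differences was not tested. Gzma was higher on the array where some of these markers were lower, and whether the markers bear on that difference was not tested either. The 5 markers of macrophages and dendritic cells summed to 1.96 and 2.50.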

How the data were processed

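Each array's deposited intensity per spot was made by Feature Extraction (version 10.10.1.1, Agilent), background-subtracted and detrended within each array, with surrogate values for dim spots, per the file headers. The authors also deposited log2 values, which match these signals on the log2 scale after a constant is taken off each array (SD 0.00029). Their direction follows the column labels, their column medians were -3.54 and -3.53, and how the constant was set is not stated in the labels or headers. Of 62976 spots, 3671 controls and those flagged as outliers (156 and 117) were left out. Spots of 1 probe were averaged as log2 signals, and the 75th percentile of the array was taken off. Names came through RefSeq accessions (GRCm38.p6) for 27508 probes, otherwise from the files. A gene was read from its brightest probe on average, and called at 2-fold. A probe dim on 1 array gives a bound against the higher of its own signal and the lowest signal well above background there. Such bounds are for the main setting, and folds under normexp can be smaller. With 1 array per genotype no p-value was computed, and the number of arrays limits the precision. Both arrays lay on 1 slide with 1 scan time. Counting was tested on simulated data.

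All members could be named, as could listed genes past 2-fold, 15 listed genes whatever their values, and cell type markers. Other genes named were chosen after their values were seen. The members and lists were chosen with earlier results of these data known. Alternatives were normexp (offset 50), 6 other scalings, a gene's probes averaged, the deposited table, dim probes kept or removed more strictly, and calls at 1.5-fold or 3-fold. Python 3.11.15, R 4.3.3, limma 3.58.1 and Biopython were used. A marker list for other lymphoid cells and some single genes are not reported here.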

Additional observations from a re-analysis of the deposited data

How the results depend on the processing

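The direction of Gzma, Gzmb, Gzmc, Gzmm and Nkg7 was kept in all 9 settings of scaling, background correction and probe choice. That of Gzmk and Prf1 turned in 1 and 2 of them. Averaging probes cannot move a gene with 1 probe, and the deposited table holds the same signals less a constant. These settings are therefore not separate checks. Gzme has no settled direction: at its brightest probe the difference stayed smaller than the scanner error of 0.39, and its probe at base 743 was higher. The 1 higher and 2 lower granule genes became 1 lower with normexp, 2 higher without the filter on dim probes, and 1 lower at 3-fold. The stricter filter left 5 measured, with 0 higher and 1 lower, since Gzma and Gzmc dropped out. Nkg7 made it 3 lower with spike-in centring, the mean over probes and 1.5-fold. The 6 higher and 6 lower pathway genes became 10 and 12 at 1.5-fold, 3 higher at 3-fold, and 9 lower with spike-ins and without the filter. Over all gene names, 741 were higher and 720 lower. Normexp gave 475 higher and 456 lower, and centring on spike-ins 449 and 1251. Dropping the filter gave 1988 and 1834, while the stricter one left 440 each way. A 1.5-fold threshold passed 1965 and 1728, a 3-fold threshold 288 and 283. Filter and threshold counts move by construction, and spike-in centring shifts all genes by -0.27 and housekeeping centring by -0.14. The offset of 50 used with normexp makes folds of dim probes smaller by construction, and how much of the change it accounts for was not tested. The other probe of Nkg7, a setting added after seeing the data, gave -2.62. No paired analysis was possible because there is 1 array per genotype. Signals near background limit Gzmd, Gzme and Gzmf.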

Other observations

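The deposited files also hold a probe for a full-length clone described as granzyme F (Gm4022), on chromosome 14 between the Gzmn and Gzmf probes and on the opposite strand to them. It was well above background on neither array, with 33.8 ± 7.82 units in wild-type and 14.3 ± 7.11 in Nr4a-TKO. Of the 13 probes of the granule genes, 4 hold the polyadenylation letters AATAAA, those of Gzma, Gzmm, Gzmk at base 1244 and Gzme at base 863, against 10.1% of all non-control probes. Among those 4, the differences in the main setting ran from at least 3.99-fold lower to 3.44-fold higher.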
